A study of Mus musculus with 8 samples.

Results

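The genes described here encode the SR and hnRNP proteins, RNA-binding proteins that decide which exons are joined in a messenger RNA. They were chosen by gene symbol: every row of the count table with 80 or more reads over the 8 libraries whose symbol begins with Srsf and a digit or with Hnrnp, together with Rnps1, Sarnp, Srrm1, Srrm2, Srrm3, Srrm4, Tra2a and Tra2b. This gave 39 of 24527 rows, 19 SR-type genes and 20 hnRNP genes, and 0 matching rows had fewer reads. Sarnp was grouped with the SR-type genes because the symbol list held it, though it encodes an mRNA export partner and not an SR protein. All 39 were among the 15434 genes with enough counts to be tested.

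RNA came from whole hippocampus of 20-week-old wild-type male C57BL/6J mice. In the BPA group (4 mice) the mothers' low-phytoestrogen feed held 50 mg of bisphenol A, the building block of polycarbonate plastics and a weak oestrogen mimic, per kg of diet during gestation and lactation. In the control group (4 mice) the same feed held 0 mg. All mice of both groups ate the control feed from weaning at postnatal day 21, so the comparison asks what remained in adulthood after early exposure had ended. No source used here ties the mice to litters. If mice of a group were littermates, the p-values reflect the spread among those animals alone.

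SR proteins bind short motifs in exons through RNA recognition domains and, through a tail rich in arginine and serine, help U1 and U2 particles settle on nearby splice sites. hnRNP proteins coat nascent transcripts and often block or loop out exons, and many of them also carry mRNA to the cytoplasm or into neurites. Many members of both families are known to limit their own levels through exons that send their mRNA to nonsense-mediated decay. In neurons the SR-related proteins Srrm3 and Srrm4 promote the inclusion of very short exons.

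Library totals differed between the groups: 43119986 to 54013884 counts in BPA mice and 27135071 to 40793192 counts in control mice, with no overlap. Group and library total therefore cannot be told apart by comparing the groups. A slope on library total inside the groups was fitted as well, and values with the total as a covariate are given where they change the picture. All 8 listed markers of hippocampal neurons were detected in every library, with a summed level of 945.6 to 1019 CPM (read counts scaled to a common library size with TMM factors) in BPA mice and 933.2 to 1016 CPM in control mice. Markers of neurons in general summed to 10030 to 10330 CPM in BPA mice and 9873 to 11610 CPM in control mice. Those of astrocytes summed to 8857 to 10080 CPM in BPA mice and 10010 to 11580 CPM in control mice, with 5 genes higher and 3 lower in BPA mice. Both sums were highest in control replicate 4. Sums for oligodendrocytes, microglia and vessel cells overlapped between the groups. Choroid plexus RNA varied most: its 12 markers summed to 165.1 to 835.2 CPM in BPA mice, highest in replicate 3, and to 209 to 3138 CPM in control mice, highest in replicate 2. All 12 had a log2 fold change below 0, and none was at 0 in any library. The 8 markers of ependyma, the ciliated lining of the ventricles, were also all below 0, and summed to 13.5 to 23.97 CPM in BPA mice and 17.1 to 36.1 CPM in control mice, again highest in control replicate 2. The part of these cells in the results was not tested beyond leaving out control replicate 2 and BPA replicate 3. In bulk tissue, fewer cells of a type and less RNA per cell cannot be told apart.

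Among the 39 genes, Sarnp was the one whose counts the results turn on. Sarnp encodes a partner of the mRNA export machinery (its yeast counterpart is Tho1). It lies on chromosome 10, 128817333 to 128877629 (GRCm38, GENCODE), and its RefSeq start falls inside that span. Its promoter region is shown here because this gene departed from the rest of the family. The promoters of Srsf9, the SR protein with the smallest p among the Srsf genes in both comparisons, and of Hnrnpul1, the hnRNP gene with the smallest p for BPA against control, are shown beside it. Each is the RefSeq window of 250 bases before to 50 bases after the annotated start (GRCm38.p6), in the direction of transcription, with CCAAT and its reverse complement ATTGG in capitals. Sarnp is chr10:128821514-128821813 on the plus strand, Srsf9 chr5:115326927-115327226 on the plus strand and Hnrnpul1 chr7:25754710-25755009 on the minus strand.
Sarnp: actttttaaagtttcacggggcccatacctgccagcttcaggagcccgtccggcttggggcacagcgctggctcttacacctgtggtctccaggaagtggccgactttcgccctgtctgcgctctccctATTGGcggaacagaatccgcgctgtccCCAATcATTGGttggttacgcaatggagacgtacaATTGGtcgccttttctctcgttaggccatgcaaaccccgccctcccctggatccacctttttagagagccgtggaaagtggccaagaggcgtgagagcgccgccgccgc
Srsf9: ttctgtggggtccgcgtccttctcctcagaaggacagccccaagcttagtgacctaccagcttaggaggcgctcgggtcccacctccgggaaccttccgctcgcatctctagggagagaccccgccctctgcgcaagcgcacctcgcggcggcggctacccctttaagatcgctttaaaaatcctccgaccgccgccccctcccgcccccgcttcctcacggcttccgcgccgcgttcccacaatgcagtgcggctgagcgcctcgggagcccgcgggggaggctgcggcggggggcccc
Hnrnpul1: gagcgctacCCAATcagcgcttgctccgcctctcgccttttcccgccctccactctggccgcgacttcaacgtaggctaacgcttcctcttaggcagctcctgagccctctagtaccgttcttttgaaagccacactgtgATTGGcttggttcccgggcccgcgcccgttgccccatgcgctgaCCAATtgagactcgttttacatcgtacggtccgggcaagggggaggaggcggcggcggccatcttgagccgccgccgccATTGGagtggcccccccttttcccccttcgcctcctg

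The Sarnp window held 4 CCAAT matches, 1 as written and 3 on the other strand, and the Hnrnpul1 window also held 4, 2 on each strand. The Srsf9 window held 0. Of the 32851 RefSeq promoter windows of the same length, 37.4% held at least 1 match on either strand and 3.37% held 3 or more. RefSeq windows were matched for 36 of the 39 genes, 49 windows in all, of which 25 held a match. The GC box GGGCGG, searched on both strands, was in 38 of the 49 windows and in 35.7% of all windows. The TATA letters TATAAA were in 4 of the 49 and in 13.6% of all windows. The windows of the family were rich in G and C, with a median of 65.0% against 52.7% over all windows. These matches are descriptions of the letters and not evidence of binding. Windows for Hnrnpll, Hnrnpul2 and Rnps1 are not shown or counted.

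Levels across the family spread widely. Per kb of exon, Hnrnpab, an hnRNP of the A/B type that travels with neuronal mRNA, averaged 82.4 ± 3.49 CPM per kb in BPA mice and 77.03 ± 5.83 CPM per kb in control mice (SD, n = 4 each). Hnrnpa2b1, which carries mRNA in oligodendrocytes and neurons, averaged 81.2 ± 6.93 CPM per kb in BPA mice and 77.2 ± 3.94 CPM per kb in control mice (SD, n = 4 each). The difference between these 2 genes was smaller than the spread between mice. Hnrnpul2, an hnRNP U-like protein, followed at 61.7 ± 2.17 CPM per kb in BPA mice and 61.5 ± 0.755 CPM per kb in control mice. Of the SR-type genes, Srrm2, a scaffold of nuclear speckles where splicing factors gather, was the most abundant, at 57.06 ± 3.02 CPM per kb in BPA mice and 59.7 ± 5.06 CPM per kb in control mice. Srsf1, the founding SR protein, came next among SR-type genes by the mean over all 8 libraries, at 32.1 ± 1.02 CPM per kb in BPA mice and 33.96 ± 1.10 CPM per kb in control mice. Rnps1 was at 27.8 ± 2.10 CPM per kb in BPA mice and 35.0 ± 5.60 CPM per kb in control mice, where it was above Srsf1. The 12 genes with the highest mean level were 11 hnRNP genes and Srrm2. Read counts follow refGene, while exon lengths join every GENCODE exon of a gene, so levels and ranks per kb are uncertain. Hnrnpr averaged 101 CPM in BPA mice and 98.6 CPM in control mice. Over its exon set of 22199 bases its mean level was 4.5 CPM per kb. The part of this mismatch in the ranking was not tested.

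The lowest level per kb was that of Hnrnpa1, 2.76 ± 0.584 CPM per kb in BPA mice and 2.72 ± 0.576 CPM per kb in control mice. Hnrnpa1 protein is a classical silencer of exons, and many processed copies of its gene are known. In the GENCODE transcripts 28.2% of its 50-base words recurred in 20 other genes, 19 of them pseudogenes. The sources used here do not state how reads that match several places were counted, so the levels of such genes are uncertain. Over 20% of the 50-base words recurred in transcripts of other genes for 7 of the 39 genes: Hnrnpf (61.9%), Srsf4 (39.5%), Sarnp (37.2%, in 2 other genes, 1 of them a pseudogene), Hnrnpa1, Hnrnpa3 (27.1%), Hnrnpab (23.8%) and Srsf2 (20.7%). Words were matched in either direction, so stretches where annotated genes overlap count too and need not mean a second place. Srsf4, Srsf2 and Hnrnpab overlap opposite-strand exons by 1532, 748 and 809 bases, and 0 pseudogenes shared their words. Hnrnpf overlaps by 806 bases, but 7 pseudogenes shared its words. For 5 genes, Srsf6, Srsf9, Srsf12, Tra2a and Hnrnpa0, 0 words recurred. The exons of 13 genes overlap those of a gene on the opposite strand: Hnrnpab, Hnrnpd, Hnrnpf, Hnrnph3, Hnrnpk, Hnrnpl, Hnrnpr, Hnrnpu, Srrm2 (by 4 bases), Srrm4, Srsf1, Srsf2 and Srsf4. The sources also do not state whether counting used the strand, so the values of these 13 genes may include reads of the partner.

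**Figure D1:**
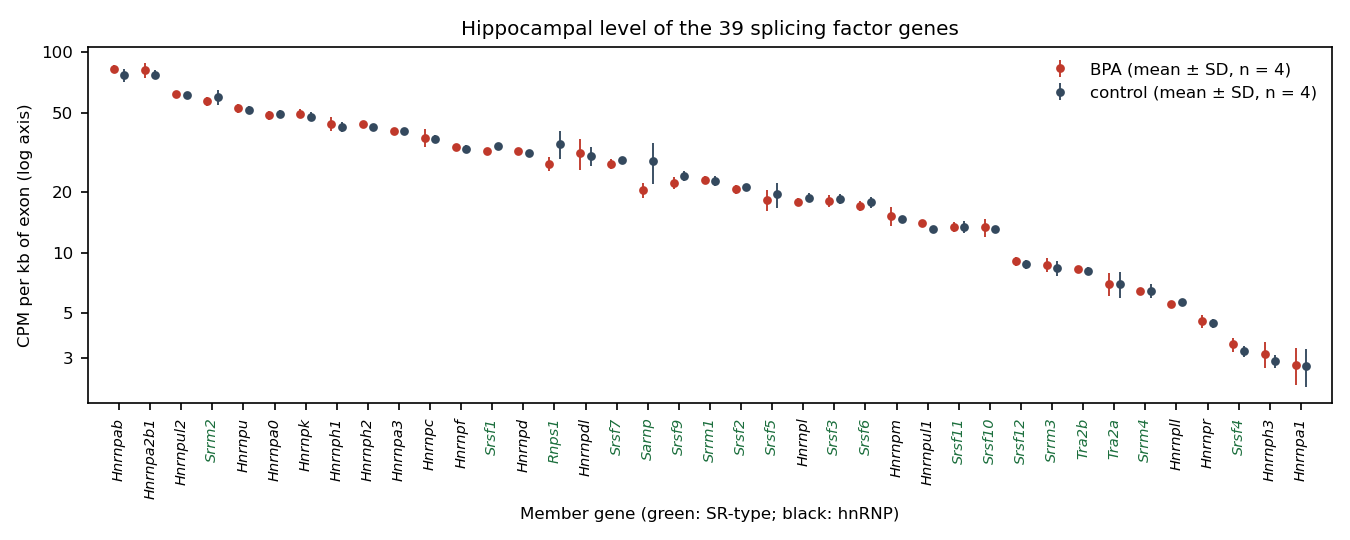
Mean level of each of the 39 genes in CPM per kb of exon (log axis), BPA in red to the left of control in dark grey, with bars for the SD over 4 mice. Levels run from above 75 for Hnrnpab and Hnrnpa2b1 to below 3 for Hnrnpa1 in both groups, and the 2 groups lie apart most for Sarnp and Rnps1.

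Between the groups, 0 of the 39 genes passed the test (edgeR quasi-likelihood test, Benjamini-Hochberg adjusted p over all 15434 genes, threshold 0.05; lowest adjusted p 0.969). Over all genes the same rule called 0%, and DESeq2 called 7 genes, 0 of them in the family. At an unadjusted p under 0.05 stood 3 of the 39, Rnps1, Sarnp and Hnrnpul1, against 4.48% of all genes (DESeq2 also gave 3). Fitted folds of BPA over control lay between 0.717 and 1.08. The median log2 fold change of the family was 0.02, with 24 genes higher and 15 lower in BPA mice. Over all genes the median was 4.91e-05, with 7723 higher and 7711 lower.

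Rnps1 and Sarnp had the lowest fold changes of the 39. Rnps1 (chromosome 17, 24414565 to 24425901) joins the exon junction complex and links splicing to nonsense-mediated decay. It was at 155, 145, 140.4 and 129 CPM in BPA replicates 1 to 4, against 154.5, 154.9, 205.8 and 203 CPM in control replicates 1 to 4. The groups overlapped narrowly, and control replicates 3 and 4 stood above the other 6 libraries. Its log2 fold change was -0.33 ± 0.11 (SE; edgeR adjusted p 0.969). Sarnp was at 28.5, 24.6, 30.2 and 28.4 CPM in BPA replicates 1 to 4, against 31.4, 34.7, 38.4 and 52.0 CPM in control replicates 1 to 4. Every BPA library lay below every control library, and control replicate 4, the smallest library, was the highest. The log2 fold change of Sarnp was -0.48 ± 0.15 (edgeR adjusted p 0.969), or -0.32 without control replicate 4 and -0.57 without control replicate 2 and BPA replicate 3. Sarnp was the only 1 of the 39 genes whose groups did not overlap, where 2.79% of all genes did not. With log2 library total as a covariate its log2 fold change was 0.03 ± 0.09, and that of Rnps1 was -0.06 ± 0.13.

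None of the 11 Srsf genes passed the test. Of these, 4 were higher and 7 lower in BPA mice, with folds from 0.923 to 1.08, and with library total as a covariate 6 were higher and 5 lower. Srsf9, an SR protein with a short arginine-serine tail, was at 36.9, 33.6, 39.7 and 37.2 CPM in BPA replicates 1 to 4, against 37.1, 41.6, 39.03 and 42.03 CPM in control replicates 1 to 4. The groups overlapped, and its log2 fold change was -0.12 ± 0.06 (-0.15 to -0.07 leaving out 1 library). Srsf1 was at 176 to 189.6 CPM in BPA mice and 186 to 201 CPM in control mice, with a log2 fold change of -0.08 ± 0.04. Srsf4 had the highest log2 fold change of the Srsf genes and the lowest CPM. It was at 12.6, 13.6, 11.1 and 12.4 CPM in BPA replicates 1 to 4 and 12.1, 10.6, 12.1 and 11.05 CPM in control replicates 1 to 4 (log2 fold change 0.11 ± 0.08, and 0.07 to 0.16 leaving out 1 library). That value was 0.0068 with library total as a covariate and 0.18 after thinning. Srsf3, which also aids mRNA export, was at 136, 139, 139 and 158 CPM in BPA replicates 1 to 4, against 137, 147, 146 and 157 CPM in control replicates 1 to 4 (-0.04 ± 0.06, and -0.09 to -0.0066 leaving out 1 library). The remaining Srsf genes lay between -0.09 ± 0.11 for Srsf5 and 0.05 ± 0.06 for Srsf12.

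None of the Tra2 and matrix genes passed the test. Tra2a and Tra2b encode proteins that bind GAA-rich exon enhancers, and their log2 fold changes were -5.70e-05 ± 0.12 and 0.03 ± 0.04. With library total as a covariate the value was -0.24 ± 0.16 for Tra2a and 0.07 ± 0.07 for Tra2b (edgeR adjusted p 0.998 for both). Tra2a spread from 39.9 to 53.5 CPM in BPA mice and from 41.8 to 56.5 CPM in control mice, while Tra2b stayed between 75.04 and 78.4 CPM in BPA mice and between 72.8 and 79.3 CPM in control mice. Of the neuronal pair, Srrm4 was at 53.0, 58.1, 56.0 and 55.8 CPM in BPA replicates 1 to 4 and 57.4, 52.4, 62.1 and 52.3 CPM in control replicates 1 to 4 (-0.01 ± 0.06). Srrm3 was at 55.5, 59.8, 49.8 and 57.7 CPM in BPA replicates 1 to 4 and 53.9, 49.0, 59.6 and 52.3 CPM in control replicates 1 to 4 (0.05 ± 0.07, and 0.01 to 0.11 leaving out 1 library). The groups overlapped almost completely for both, and the 95% intervals of their folds were 0.9004 to 1.10 for Srrm4 and 0.927 to 1.16 for Srrm3. Srrm2 had -0.06 ± 0.06, and Srrm1, a coactivator of exon enhancers, 0.02 ± 0.05. Leaving out 1 library, the value of Srrm2 ran from -0.12 to -0.02.

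Among hnRNP genes, 17 of 20 were higher and 3 lower in BPA mice (median log2 fold change 0.04), and among SR-type genes 7 of 19 were higher and 12 lower (median -0.03). The difference between the 2 families was not tested, and their genes share libraries. With DESeq2's size factors in edgeR the counts were 16 of 20 and 7 of 19 higher, with library total as a covariate 15 of 20 and 10 of 19, without BPA replicate 3, 12 of 20 and 7 of 19, and without control replicate 2 and BPA replicate 3, 13 of 20 and 9 of 19. Hnrnpul1 (chromosome 7, 25721165 to 25754757), an hnRNP U-like protein, was at 119, 125, 119 and 123 CPM in BPA replicates 1 to 4, against 112, 119, 113 and 110 CPM in control replicates 1 to 4. Control replicate 2 reached into the BPA range, and the other 3 control libraries lay below it. Its log2 fold change was 0.09 ± 0.04 (edgeR adjusted p 0.969), and it was above 0 in every setting tried (0.04 with library total as a covariate). Hnrnpab was at 222, 234, 241 and 220.2 CPM in BPA replicates 1 to 4, against 201, 205, 237 and 214 CPM in control replicates 1 to 4 (0.10 ± 0.06, and 0.07 to 0.15 leaving out 1 library). Control replicate 3 alone lay inside the BPA range. Hnrnpa2b1 was at 475, 534, 543 and 586 CPM in BPA replicates 1 to 4 and 473, 535, 512 and 512 CPM in control replicates 1 to 4 (0.07 ± 0.06, and 0.03 to 0.13 leaving out 1 library). The lowest log2 fold change of the hnRNP genes was that of Hnrnpl, which binds CA repeats and was at 111, 101, 111 and 104 CPM in BPA replicates 1 to 4 and 107, 119, 109 and 114 CPM in control replicates 1 to 4 (-0.07 ± 0.05, and -0.09 to -0.04 leaving out 1 library).

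For several abundant hnRNP genes the interval of the fold was narrow. Hnrnpa3, another A/B protein, ranged from 214 to 222 CPM in BPA mice and from 215 to 220.4 CPM in control mice, and the fold was 1.00 (95% interval 0.933 to 1.07). Hnrnpul2 had a fold of 1.00 (0.933 to 1.08) and Hnrnph2, which binds runs of G and is encoded on chromosome X, 1.03 (0.959 to 1.10). Hnrnpd, which also marks AU-rich mRNA for decay, had 1.03 (0.956 to 1.11), Hnrnpf, a G-run binder, 1.03 (0.953 to 1.11), and Hnrnpu, which binds nuclear RNA and DNA, 1.02 (0.935 to 1.11). The poly(C)-binding Hnrnpk had 1.03 (0.944 to 1.13), Hnrnph1, a G-run binder, 1.03 (0.936 to 1.14), and Hnrnpr, which binds mRNA in axons, 1.03 (0.933 to 1.13). Hnrnpa0 and Hnrnpll, the other 2 hnRNP genes below 1, had 0.982 (0.901 to 1.07) and 0.980 (0.905 to 1.06). The precision was poorest for Hnrnpa1, whose interval ran from 0.735 to 1.40.

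**Figure D2:**
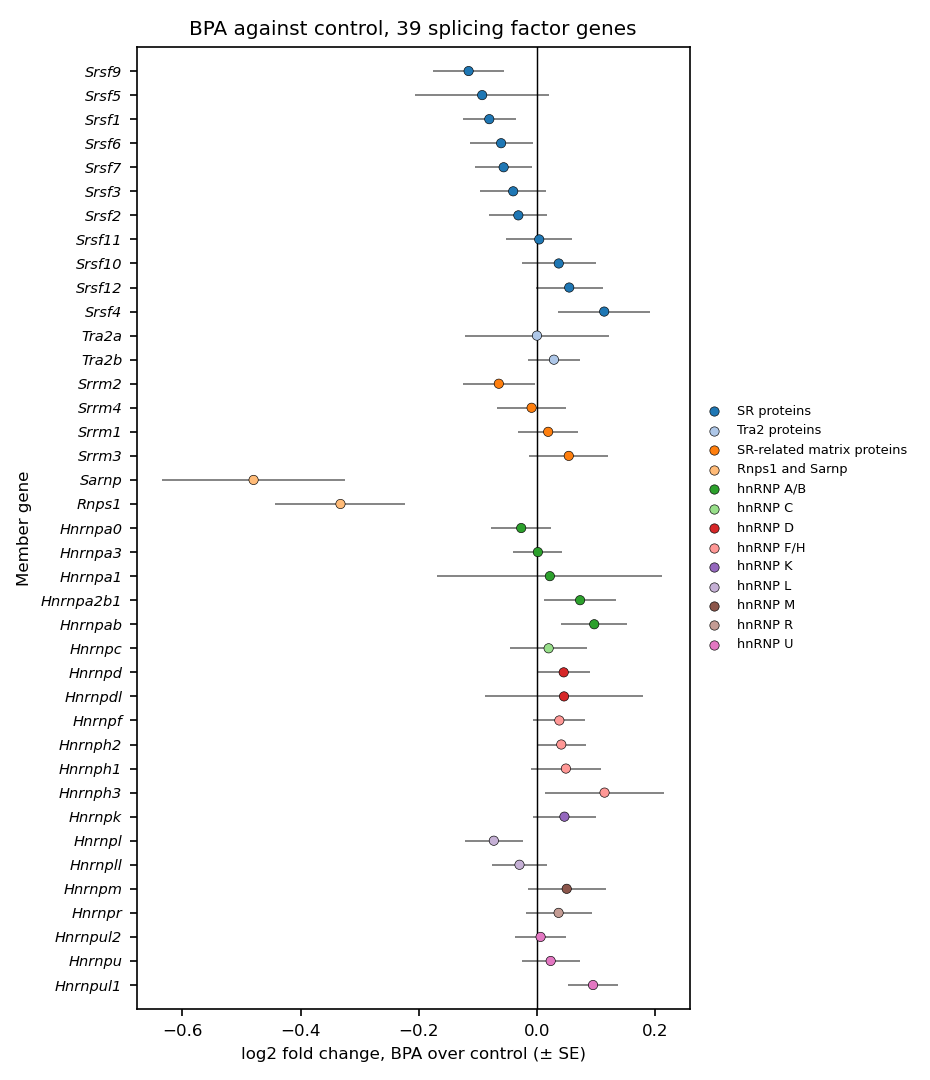
Log2 fold change of BPA over control for each of the 39 genes, with bars for the standard error (edgeR, 4 mice per group), ordered and coloured by subgroup. Sarnp and Rnps1 lie at -0.48 and -0.33, and the other 37 genes lie between -0.12 and 0.11.

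Within groups, the level of Sarnp fell with library total. The slope of its log2 level on log2 library total was -1.07 ± 0.16 (SE; edgeR quasi-likelihood test with a group term, adjusted p 0.0368 over all 15434 genes). A slope of -1 is that of a gene whose read count does not change as the library grows. Sarnp was 1 of 39 family genes called, where 4 of all genes were called (0.0259%), the others being Grik5, Ahdc1 and Gpr37l1. Sarnp entered the family by name, and members were chosen with earlier results of these data known. The family's share of calls is therefore not evidence of an excess. Without Sarnp, the other 38 members held 0 slope calls and 0 genes whose groups did not overlap in CPM. At an unadjusted p under 0.05 stood 2 of the 39, Sarnp and Rnps1, against 5.06% of all genes. In CPM, the slope of Sarnp was -0.78 within the 4 BPA libraries alone and -1.17 within the 4 control libraries alone. The call rests on few libraries: it was lost without any 1 of control replicates 1, 2 and 4 or BPA replicates 1, 2 and 4 (edgeR adjusted p 0.0514 to 1.00), while the slope stayed between -1.18 and -0.75. It was kept without control replicate 3, without BPA replicate 3, and without control replicate 2 and BPA replicate 3 together (edgeR adjusted p 0.0187, 0.0423 and 0.0453). The adjusted p was 1.48e-05 by DESeq2 and 0.0787 in edgeR after all libraries were thinned to the smallest total.

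The raw counts show the same thing directly. Sarnp had 1274, 1319, 1311 and 1233 reads in BPA replicates 1 to 4, against 1271, 1302, 1189 and 1364 reads in control replicates 1 to 4. The largest library, BPA replicate 2, and the smallest, control replicate 4, differed by 1.99 times in total and held 1319 and 1364 Sarnp reads. The highest Sarnp count was 1.15 times the lowest, and the counts had a coefficient of variation of 4.22%, against 21.0% for the library totals. Of the 12290 tested genes with a mean count of at least 100, a limit chosen after the values were seen, Sarnp was the 1 gene with the smallest coefficient of variation of raw counts. By the ratio of highest to lowest count, 2 genes were at or below it, Sarnp itself and Vsig10l. Over the other 38 family genes this ratio ran from 1.46 for Rnps1 to 2.59 for Tra2a, and its median over the family was 2.06, close to the 2.07 of all 12290 genes. Sarnp has a short exon set of 1360 bases, 55 of them shared with Dnajc14 on the same strand, and Ormdl2 lies on the opposite strand within its span with 0 shared exon bases. The part of these overlaps and of the recurring 50-base words in the slope was not tested.

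**Figure D3:**
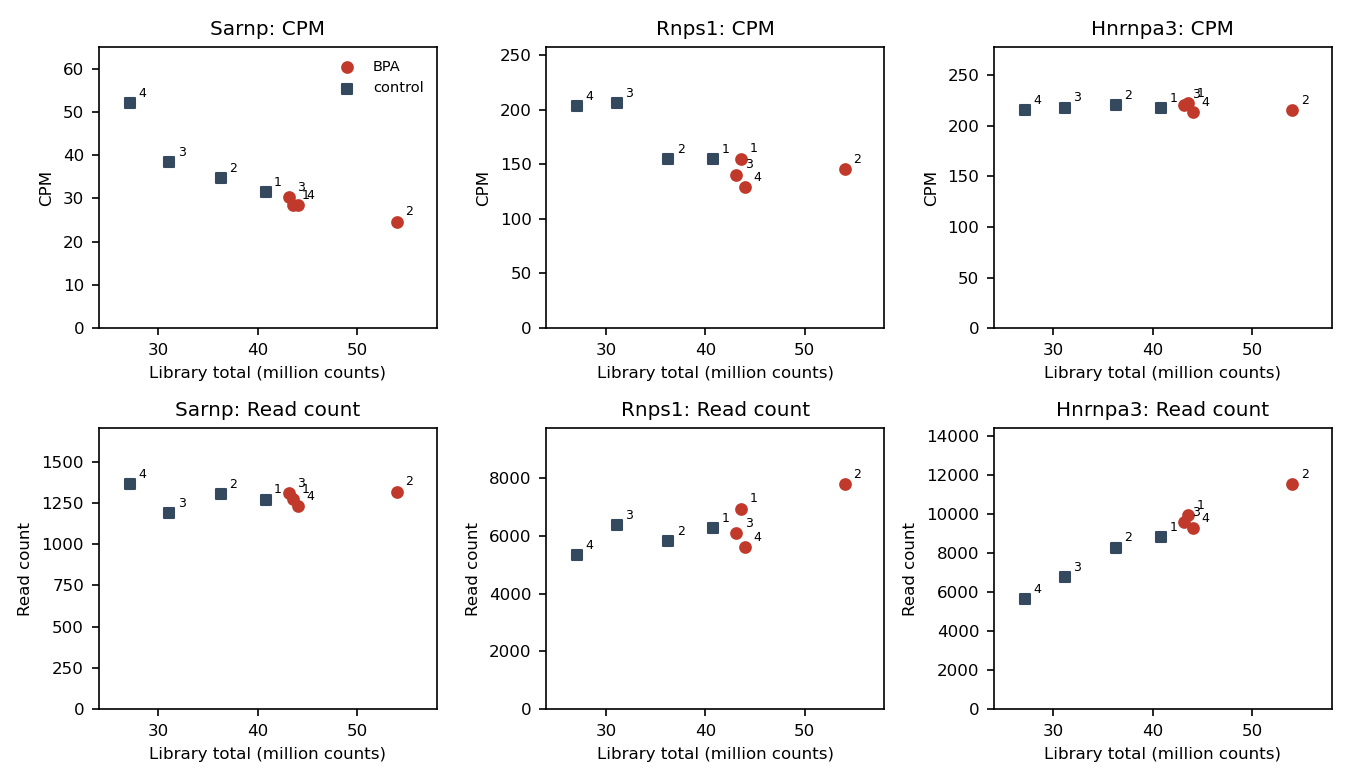
CPM (upper row) and raw read count (lower row) of Sarnp, Rnps1 and Hnrnpa3 against library total, with BPA as red circles and control as dark squares, each numbered by replicate. Sarnp counts stay between 1189 and 1364 while totals run from 27135071 to 54013884 counts, Rnps1 counts run from 5327 to 7783, and Hnrnpa3 counts grow with the total at a steady CPM.

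Rnps1 also had a negative slope, which did not pass the test. Its slope was -0.56 ± 0.22 (edgeR adjusted p 0.959), from -0.82 without BPA replicate 2 to -0.45 without control replicate 1. It had 6934, 7783, 6090 and 5605 reads in BPA replicates 1 to 4, against 6253, 5814, 6375 and 5327 reads in control replicates 1 to 4. The slope differed between the groups, by an amount that was not tested: in CPM it was 0.11 within BPA mice and -0.81 within control mice. As for Sarnp, the value within BPA mice rests largely on replicate 2. BPA replicates 1, 3 and 4, with totals close together, ran from 129 to 155 CPM for Rnps1. Exons of Rnps1 overlap 0 bases of any opposite-strand gene, and 10.8% of its 50-base words recur in 1 pseudogene.

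No other member's slope passed the test. Over the 39 genes the median slope was -0.03, with 24 negative and 15 positive, and over all genes the median was -0.0018, with 7761 negative and 7673 positive. Srsf9 had -0.31 ± 0.15 and Srsf3 -0.25 ± 0.14. Tra2a had the highest slope, 0.53 ± 0.28 (0.35 without control replicate 1 and 0.96 with the replicate block, which adds replicate number to the model). Srrm2 had 0.30 ± 0.15 (0.09 without control replicate 4 and 0.46 with the replicate block). All 4 matrix genes had positive slopes, from 0.03 for Srrm1 to that of Srrm2, and all 5 A/B genes had negative ones, from -0.19 for Hnrnpa0 to -0.0012 for Hnrnpa3. Srrm2 was at 695, 784, 711 and 741 CPM in BPA replicates 1 to 4, against 783, 773, 832 and 677 CPM in control replicates 1 to 4. Control replicate 4, the smallest library, was the lowest for Srrm2 and the highest for Sarnp. With library total as a covariate the log2 fold change of Srrm2 was -0.20 ± 0.09, against -0.06 without it (edgeR adjusted p 0.998 with the covariate).

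**Figure D4:**
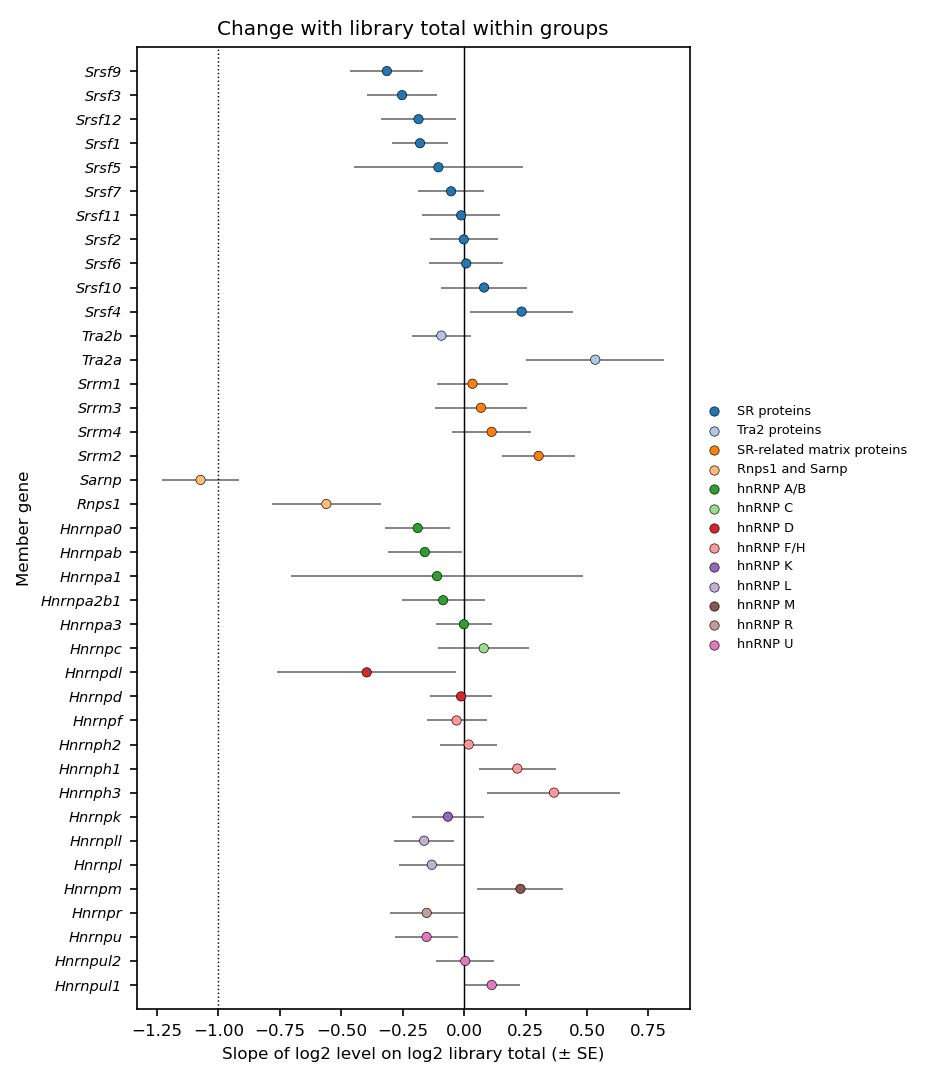
Slope of log2 level on log2 library total within groups for each of the 39 genes, with bars for the standard error (edgeR, 8 libraries with a group term), ordered and coloured by subgroup. The dotted line at -1 marks a constant read count. Sarnp lies at -1.07 and Rnps1 at -0.56, and the other genes lie between -0.40 and 0.53.

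Members also varied between mice of 1 group without regard to exposure, and these examples were chosen after their values were seen. BPA replicates 3 and 4, whose totals were close at 43119986 and 44002785 counts, held many of the extremes: replicate 4 was the highest of the 8 libraries for 10 genes and replicate 3 for 8, and the lowest was replicate 4 for 6 genes and replicate 3 for 8. Hnrnph3, of the G-run family, was at 7.77 CPM in BPA replicate 3 and 11.2 CPM in BPA replicate 4, and the 4 control mice lay at 8.46 to 9.96 CPM. Hnrnpc, which binds runs of U, was at 140.5 CPM in BPA replicate 3 and 181 CPM in BPA replicate 4, with control mice at 152 to 168 CPM. Hnrnpm, which binds GU-rich RNA, was at 105 and 134 CPM in these 2 libraries, with control mice at 113 to 122 CPM. Hnrnpdl, a D-type protein, ran the other way, at 186 CPM in BPA replicate 3 and 123 CPM in BPA replicate 4, with control mice at 126 to 160.3 CPM. Srsf5 likewise was at 78.9 and 63.9 CPM in these libraries, with control mice at 66.3 to 91.8 CPM. For each of these genes the 2 BPA mice differed by more than their group differed from controls, which the way they were chosen favours. How often these 2 libraries held the extremes over all genes was not counted.

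The family as a whole stayed close to its mean in each library. The median deviation of the 39 genes from their own means ran from -0.03 to 0.02 (log2) in BPA libraries and from -0.03 to 0.02 in control libraries. The number of genes above their own mean was 17, 24, 21 and 24 in BPA replicates 1 to 4 and 8, 25, 23 and 21 in control replicates 1 to 4. In control replicate 1 most of the family lay slightly below the mean. The 39 genes together held 0.636 ± 0.00505% of all counts in BPA mice and 0.633 ± 0.0258% in control mice (SD, n = 4 each).

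**Figure D5:**
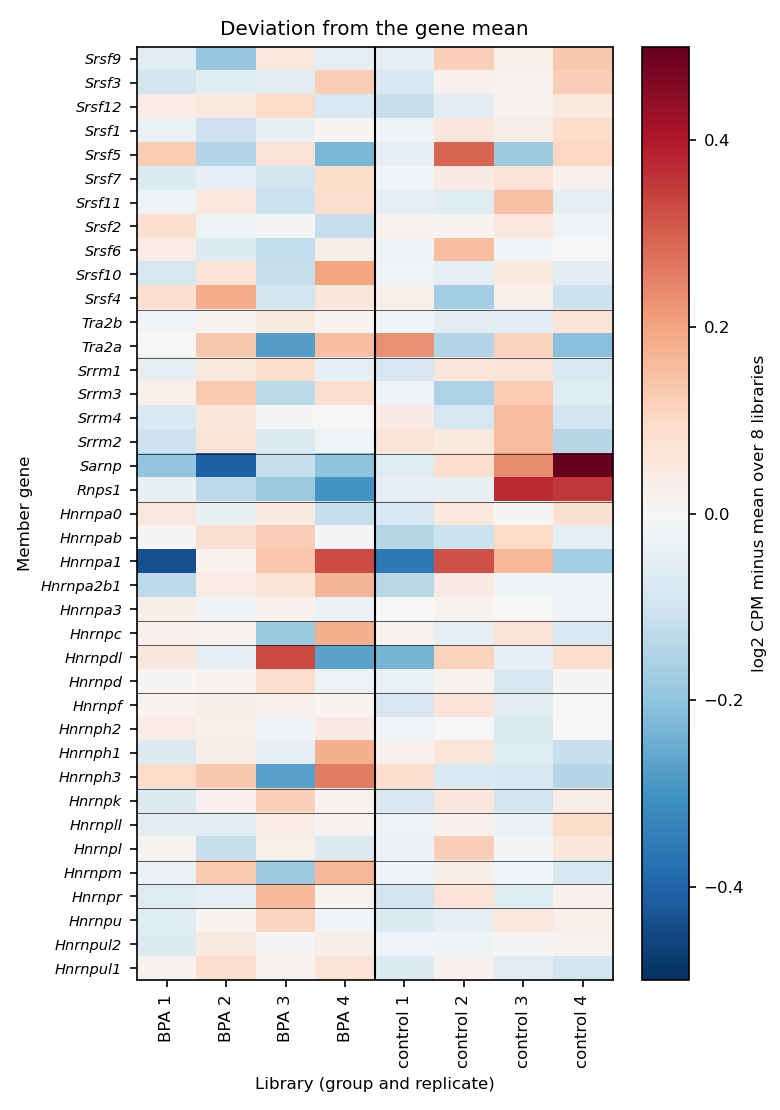
Heat map of log2 CPM minus each gene's mean over the 8 libraries, BPA libraries left of control libraries, with genes ordered by subgroup and colours clipped at 0.5 in either direction. The row of Sarnp is lowest in BPA replicate 2 and highest in control replicate 4, and BPA replicates 3 and 4 carry opposite colours for Hnrnph3, Hnrnpc and Hnrnpdl.

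Other genes of the splicing pathway, in lists written out for this work, gave 0 calls as well. The work of SR proteins in splicing depends on phosphorylation and import into the nucleus. Of 10 genes for SR kinases and import 4 were higher and 6 lower (median log2 fold change -0.0097). Srpk1, the cytoplasmic SR kinase, averaged 38.7 ± 1.24 CPM in BPA mice and 36.3 ± 1.15 CPM in control mice (0.09 ± 0.05, or 0.03 ± 0.08 with library total as a covariate), and Clk1, a nuclear SR kinase, 62.2 ± 1.30 CPM in BPA mice and 67.5 ± 7.79 CPM in control mice (-0.12 ± 0.07; SD over n = 4 each, edgeR adjusted p 0.969 for both). Of 19 genes of the Sm core and U1 particle, 10 were higher and 9 lower (median 0.0035). Tial1, which helps U1 bind weak sites, averaged 60.4 ± 1.29 CPM in BPA mice and 64.8 ± 1.78 CPM in control mice (-0.10 ± 0.04), with no overlap between the groups. Snrpf, an Sm ring subunit, averaged 2.84 ± 0.433 CPM in BPA mice and 2.24 ± 0.236 CPM in control mice (0.34 ± 0.14, or 0.11 ± 0.23 with library total as a covariate).

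In the lists for the U2 particle and for the tri-snRNP most genes had log2 fold changes above 0, where 50.04% of all genes did. Of 19 genes for 3′ splice site recognition and the U2 particle, 17 were higher (median log2 fold change 0.06), and of 24 genes for the tri-snRNP and catalysis, 23 were higher (median 0.07). No gene of either list passed the test (lowest edgeR adjusted p 0.969), and the genes of a list share libraries. With library total as a covariate 13 of the 19 and 17 of the 24 were higher, against 8134 of all 15434 genes, and the value of Eftud2 was 0.04 ± 0.07. Sf3b2, a U2 subunit, averaged 276 ± 8.20 CPM in BPA mice and 254 ± 8.68 CPM in control mice (0.12 ± 0.05), with no overlap. Sf3a3, another U2 subunit, averaged 44.8 ± 2.19 CPM in BPA mice and 41.4 ± 1.88 CPM in control mice (0.12 ± 0.05). Sart1, a tri-snRNP protein, averaged 64.8 ± 2.09 CPM in BPA mice and 59.3 ± 1.34 CPM in control mice (0.13 ± 0.04), again with no overlap, and Eftud2, the GTPase of U5, 112.5 ± 3.42 CPM in BPA mice and 104 ± 4.87 CPM in control mice (0.12 ± 0.05).

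Of 41 tested genes for other splicing regulators of neurons, 17 were higher and 24 lower (median -0.02), and with library total as a covariate 22 were higher and 19 lower. Nono, a paraspeckle protein, averaged 161.5 ± 6.78 CPM in BPA mice and 147 ± 3.70 CPM in control mice (0.13 ± 0.04; no overlap), and Elavl1, which stabilises AU-rich mRNA, 98.2 ± 2.63 CPM in BPA mice and 108.5 ± 7.47 CPM in control mice (-0.14 ± 0.05). With library total as a covariate Elavl1 was at -0.0025 ± 0.07, and its slope was -0.30 ± 0.12 (edgeR adjusted p 0.959). The exon junction, speckle and export list is the one nearest to Rnps1 and Sarnp in function, and 18 of its 21 genes were higher (median 0.05). Alyref, an export adaptor of the same complex as Sarnp, averaged 17.6 ± 0.692 CPM in BPA mice and 15.6 ± 0.903 CPM in control mice (0.18 ± 0.06; no overlap), with a slope on library total of 0.06. Pnn, a partner of Rnps1, averaged 130.0 ± 6.42 CPM in BPA mice and 120.0 ± 7.23 CPM in control mice (0.12 ± 0.05), with a slope of 0.18. With library total as a covariate 14 of the 21 were higher, and Pnn was at 0.03 ± 0.08. Of 10 nonsense-mediated decay genes 8 were higher (median 0.06), but 3 with that covariate. Upf3b had a log2 fold change of 0.10 ± 0.05 and Smg6 one of 0.15 ± 0.08 (0.03 ± 0.12 with the covariate). Exons of Snrpf, Sf3b2, Sart1, Eftud2, Elavl1 and Smg6 overlap a gene on the opposite strand.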

How the data were processed

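Polyadenylated RNA of 8 hippocampi was made into stranded libraries, per the labels' protocols. The values deposited by the authors are raw read counts for each gene symbol, without normalization, and genes follow refGene per the file headers. The submitters' processing notes name Trimmomatic 0.32, STAR 2.3.0e, featureCounts 1.5.0, DESeq2 and mm10. Columns were matched to samples by the library code in the titles. Genes were filtered with filterByExpr, scaled by TMM and tested with edgeR 4.0.16 (R 4.3.3), with a group term alone or with centred log2 library total, two-sided, Benjamini-Hochberg adjusted at 0.05 over 15434 genes. Both models were also run on simulated counts with the same dispersion for every gene, which is not evidence of their power in these data. Standard errors come from the test statistic, and 95% intervals use 6 degrees of freedom. Each of the 12 replicate pairs differed by more than sampling noise (chi-square over its degrees of freedom 10.2 to 24.96). DESeq2 1.42.0, limma-voom 3.58.1, other scaling, no filter, thinning, the replicate block and leaving out each library were alternatives.

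Members and lists were chosen with earlier results of these data known. Named with values were members past the threshold, the 8 with the smallest p for exposure and the 6 for the slope, the 3 most abundant SR-type and hnRNP genes per kb, Srrm2, Srrm3 and Srrm4, and 2 genes per pathway list. Others were named after their values were seen. Positions, exon lengths and overlaps are from GENCODE M21. The biological coefficient of variation was 8.20%.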

Additional observations from a re-analysis of the deposited data

Results flagged for a closer look

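Of 36 sets of 4 values screened, 1 had a library far from the other 3, and chance gives about 1 in 20. Srsf3 stood at 157.7 CPM in BPA replicate 4, against 135.6 to 139.2 CPM in the other 3 BPA mice, a gap of 0.837 of the range of that group. Control replicate 4 had a similar level, at 157.3 CPM.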

How the results depend on the processing

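Of 450 values of named members recomputed under other settings, 415 kept their direction and their side of the threshold, and 27 reversed. The remaining 8 were all the slope of Sarnp, which lost its call. That slope was the only named value past the threshold in the main fits, so no other value had a call to lose. For BPA against control, 0 members were called in any setting, and all genes gave 0 calls except under DESeq2 (7). Leaving out 1 library, the median log2 fold change of the 39 genes ran from -0.00486 to 0.0360. With library total as a covariate, values turned to 0.0286 for Sarnp, 0.0267 for Srsf9, 0.00161 for Srsf1 and 0.0770 for Srsf3. Tra2a, at -5.70e-05, became 0.00323 with no filter, 1.99e-05 with DESeq2, 0.00208 with the replicate block, 0.00948 after thinning and 0.0313 without control replicate 2 and BPA replicate 3 (chosen after seeing the data), where Hnrnpul2 was at -0.00182. Leaving out 1 library, Tra2a ran from -0.0640 to 0.0829, Srrm4 from -0.0404 to 0.0434 and Hnrnpul2 from -0.00818 to 0.0298. Slope calls over all genes numbered 7 with no filter, 20 with DESeq2, 0 with the replicate block and 12 without control replicate 2 and BPA replicate 3, and 0 to 7 leaving out 1 library. Member calls were 0 with the replicate block and after thinning, and 0 to 1 leaving out 1 library; the median slope ran from -0.0669 to 0.0253. With the replicate block the slope of Hnrnpa2b1 was 0.220, and after thinning that of Hnrnpul2 was -0.0365. Leaving out 1 library, slopes ran from -0.148 to 0.0936 for Hnrnpa2b1, -0.0591 to 0.0676 for Hnrnpul2, -0.0773 to 0.159 for Srrm3 and -0.0385 to 0.207 for Srrm4. Same-numbered libraries did not deviate together (r -0.372 to 0.0702, against -0.168 to 0.322 for other numbers). With deviations taken within groups of 4 mice, these values cannot show whether the numbers pair mice. The replicate block gave a Sarnp slope of -1.07 ± 0.296 (SE; adjusted p 1.00, edgeR), against an SE of 0.157 in the main fit. The block adds terms for replicate number and leaves fewer residual degrees of freedom. The calls lost with it therefore do not show an effect of pairing. The causes were not tested.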
